A study of Homo sapiens with 6 samples.

Results

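The genes examined were 9 that encode laminin chains or parts of the hemidesmosome: LAMA3, LAMB3, LAMA5, LAMB1, LAMC1, COL17A1, DST, PLEC and CD151. They were taken by symbol from the 58735 genes of the deposited read count table, where each symbol occurs once, and 9 of the 9 passed the filter on low counts. RNA-Seq had been performed on MCF10A, a nonmalignant human breast epithelial cell line that grows in medium with horse serum, EGF, insulin, cholera toxin and hydrocortisone. 3 libraries came from cells that received a nontargeting control siRNA pool (siControl) and 3 from cells that received 1 siRNA product against DAB2IP (siDAB2IP), each collected 48 hours after transfection. Both groups were thus transfected, MCF10A is a single line, and the effect of 1 siRNA product cannot be told apart from what that product does to other transcripts. DAB2IP encodes a Ras GTPase-activating protein, and the comparison asks which transcripts change when its expression is lowered.

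Laminins are trimers of an α, a β and a γ chain that are secreted into the basement membrane, the sheet of matrix on which an epithelium rests. The laminin that holds the α3 and β3 chains is the main one beneath stratified and glandular epithelia with a basal cell layer, and trimers with the α5, β1 and γ1 chains are found in most epithelial basement membranes. A hemidesmosome anchors a basal cell to this sheet: integrin α6β4 and collagen XVII bind on the outer side, plectin and the epithelial form of dystonin tie them to keratin filaments on the inner side, and the tetraspanin CD151 associates with the laminin-binding integrins.

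With knockdown, LAMB3 rose 2.02-fold and LAMB1 fell to 0.728 of its control level, while none of the other 7 members passed an adjusted p of 0.05. The β-chain transcripts therefore changed make-up: LAMB3 was 39.2% ± 0.761 of their summed level in the siControl libraries and 60.7% ± 3.05 in the siDAB2IP libraries (SD, n = 3 in each group). The call of LAMB3 held in 6 of 6 fits with a library left out, and that of LAMB1 in 2 of 6. Of the genes tested by the same fit, 6.55% rose and 7.65% fell, so 1 gene in either direction among 9 members (11.1%) is near the background, and the results below are about single genes.

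Stretches upstream of annotated starts are shown for LAMB3 and LAMB1, the members whose level changed in opposite directions. The sequences are RefSeq windows before the transcription start (GRCh38.p14), trimmed to the part outside every exon of GENCODE release 29, 5′ to 3′ on the gene's strand. LAMB3 has 3 windows, and the stretches before its outermost and innermost starts are given. Which start the cells used was not measured. Capitals mark matches, on either strand, to 4 patterns. The AP-1 pattern searched was TGANTCA. The letters of the GC box were GGGCGG. Those of the TATA box pattern were TATAAA, and NF-κB was searched by its usual consensus. Matches may overlap.
LAMB3 before its outermost start, chr1:209652467-209652675, minus strand: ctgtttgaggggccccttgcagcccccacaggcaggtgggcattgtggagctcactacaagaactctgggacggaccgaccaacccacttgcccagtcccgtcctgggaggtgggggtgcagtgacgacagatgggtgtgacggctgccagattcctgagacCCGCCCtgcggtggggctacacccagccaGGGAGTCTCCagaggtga
LAMB3 before its innermost start, chr1:209651395-209651624, minus strand: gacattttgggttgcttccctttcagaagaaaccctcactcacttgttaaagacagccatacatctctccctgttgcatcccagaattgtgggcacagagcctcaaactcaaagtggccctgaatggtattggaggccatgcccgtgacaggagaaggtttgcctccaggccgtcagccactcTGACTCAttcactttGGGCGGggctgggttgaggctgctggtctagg
LAMB1, chr7:108003256-108003411, minus strand: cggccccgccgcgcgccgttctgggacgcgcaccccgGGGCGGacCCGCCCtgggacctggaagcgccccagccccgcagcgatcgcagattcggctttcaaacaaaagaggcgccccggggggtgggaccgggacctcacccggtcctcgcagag
The LAMB3 stretch before the outermost start holds a GC box and an NF-κB match that begins 59 bases before that start. The stretch before the innermost start holds an AP-1 match, 67 bases before it, and a GC box. The LAMB1 stretch holds 2 GC boxes and no match to the AP-1, TATA or NF-κB patterns. Over the full 250 bases before each start, windows existed for 7 of the 9 members. A window of LAMA3 at its internal start held 2 AP-1 matches, and NF-κB matches were seen in LAMB3 alone among these members. In all 35116 windows of the same length, an AP-1 match was found in 6.57%, a GC box in 42.6%, a TATA box in 10.7% and an NF-κB match in 9.96%. A match is a match of letters, and no binding was measured in these cells.

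Each library held 16353783 to 21916062 counts, of which the 9 members took 1.08% to 1.33%. At this depth 3 counts, the limit that a count of 0 allows, equal 0.137 to 0.183 CPM (counts scaled to library size with TMM factors), a limit for counting error alone. The targeted gene was lower in every siDAB2IP library: DAB2IP was at 103, 94.2 and 77.4 CPM in siControl replicates 1 to 3 and at 27.5, 25.6 and 22.4 CPM in siDAB2IP replicates 1 to 3 (log2 fold change −1.86, SE 0.13, adjusted p = 9.71e-05 from edgeR). The cells carried basal epithelial markers, of which 9 of 9 were tested, and 3 of these fell with knockdown, namely KRT5, KRT14 and KRT17. KRT5 fell from 3532 ± 378 to 1799.8 ± 40.9 CPM and KRT14 from 2186 ± 308 to 765 ± 285 CPM (SD, n = 3 in each). TP63, ITGA6 and CDH3 were also lower in every siDAB2IP library than in any siControl library, at fold changes of 0.675, 0.732 and 0.859. They did not pass (adjusted p = 0.0615, 0.163 and 0.180 from edgeR). Among the 9 basal markers 3 thus fell and the groups did not overlap for 6, beside 7.65% and 35.9% of all genes tested. The fold changes of EGFR, CDH1 and ITGB4 of the same list were 1.02, 1.07 and 1.09 and did not pass. The summed level of that list, most of whose drop is in KRT5 and KRT14, was 10118 to 12234 CPM in the siControl libraries and 6522 to 8217 CPM in the siDAB2IP libraries. Its part in the results below was not tested, and in bulk RNA fewer cells of a type cannot be told apart from less of their RNA per cell. ESR1, PGR and KRT19 of the 7 luminal markers, COL1A2, COL3A1, LUM, PDGFRA and THY1 of the 8 fibroblast markers and PTPRC and CD3E of the 4 immune markers were below 1 CPM in every library. The luminal keratin genes KRT8 and KRT18 were expressed, at means of 142 and 146 CPM in siControl, and make up most of the luminal sum. GATA3 of that list was at a mean of 20.1 CPM in siControl. The summed levels in siControl and siDAB2IP were 303 to 318 and 277 to 364 CPM for the luminal list, 163 to 293 and 146 to 206 CPM for the fibroblast list, which is mostly DCN, 36.8 to 71.1 and 50.8 to 77.8 CPM for the immune list, which is mostly CD14, and 23.7 to 34.0 and 15.8 to 17.3 CPM for the 5 endothelial markers. Of these lists FOXA1 (luminal) rose 2.07-fold, COL1A1 (fibroblast) rose 1.72-fold and KDR (endothelial) fell to 0.525 of its control level (adjusted p = 0.0274, 0.0129 and 0.0471 from edgeR), and no other member passed. Without 1 library at a time the number of genes called over the whole table ranged from 723 (without siControl replicate 2) to 2524 (without siDAB2IP replicate 3), against 2192 with all 6.

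The level of each member per length, in FPKM, which divides counts by gene length and library total, was high in the control cells. All but DST stood above the 95th percentile of the siControl FPKM of the genes tested, and DST stood at percentile 84.6. In order, PLEC was at 197 ± 37.6 FPKM, LAMB1 at 193 ± 7.26, COL17A1 at 193 ± 6.48, LAMB3 at 181 ± 4.64, LAMC1 at 119 ± 13.4, LAMA5 at 113 ± 17.9, CD151 at 110 ± 4.67, LAMA3 at 53.3 ± 4.47 and DST at 17.3 ± 0.602 FPKM (SD, n = 3 in siControl). PLEC, LAMB1 and COL17A1 overlapped one another, with the PLEC range also taking in LAMB3, as did LAMC1, LAMA5 and CD151 in turn, so their order within these runs is not resolved. In the siDAB2IP libraries LAMB3 stood first at 366 ± 36 FPKM (SD, n = 3), above PLEC at 199 ± 22.5 FPKM (SD, n = 3), and the lowest siDAB2IP library for LAMB3 (327 FPKM) was above the highest for PLEC (221 FPKM). COL17A1 was then at 164 ± 3.33, LAMB1 at 140 ± 18.6, LAMA5 at 135 ± 5.79, CD151 at 130 ± 6.77, LAMC1 at 128 ± 4.59, LAMA3 at 60.9 ± 3.39 and DST at 17.6 ± 1.5 FPKM (SD, n = 3). From COL17A1 to LAMC1 each gene overlapped the next.

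These levels rest on the length by which the authors divided, which for the 9 members equals the union of all exons in GENCODE release 29. For LAMA3 that length is 14678 bases, whereas its 2 short coding transcripts from the internal start measure 5007 and 5671 bases. If every LAMA3 read came from the shorter of these, its control level would be 156 FPKM in place of 53.3 FPKM. For DST the union is 42341 bases and its 7 basic coding transcripts measure 3547 to 22431 bases, so that the control level would be 206 FPKM if every read came from the shortest and 32.6 FPKM if every read came from the longest. CD151 was divided by 3938 bases and LAMB1 by 8140, while their longest basic coding transcripts measure 1658 and 5766 bases. The order of the members given above therefore also depends on the lengths used. The gene counts do not separate the transcripts, and a fold change of a gene does not use its length.

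**Figure D1:**
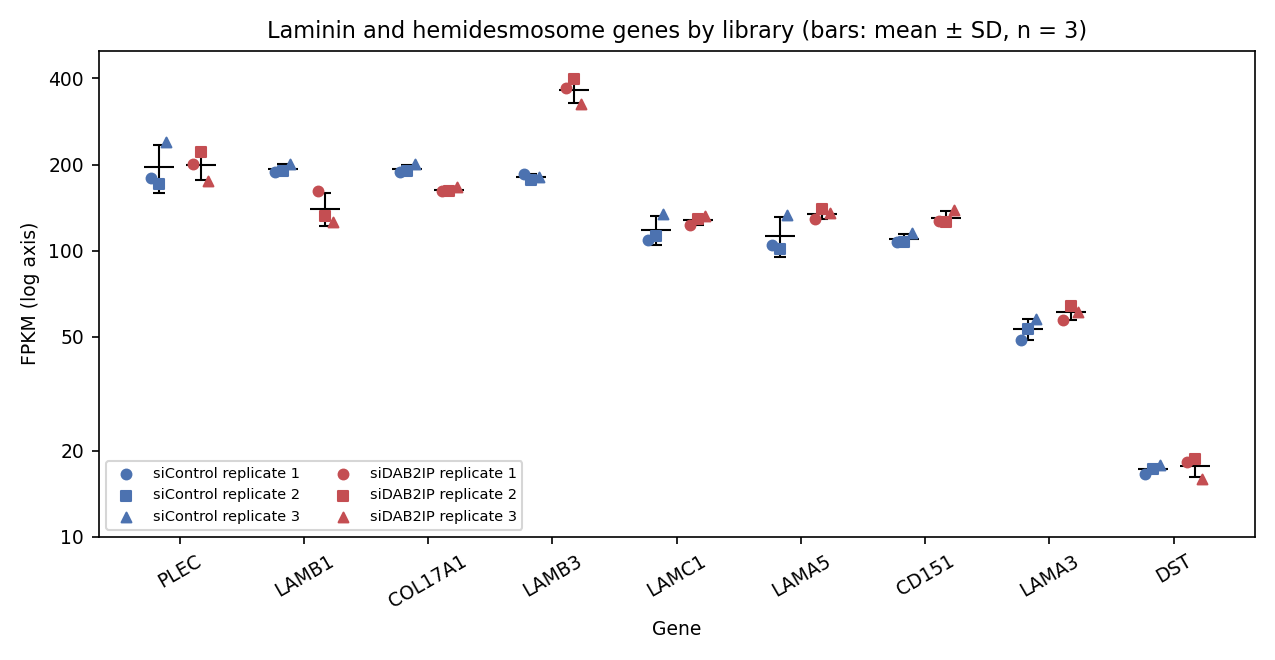
FPKM of the 9 members (log axis) in the 3 siControl libraries (blue) and the 3 siDAB2IP libraries (red), with symbols for the replicate number and black bars for the mean ± SD. LAMB3 moves from 176 to 185 FPKM up to 327 to 398 FPKM, and LAMB1 from 188 to 201 down to 127 to 161 FPKM.

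LAMB3 encodes the β3 chain, which is known only from the laminin that also holds α3. The gene lies on chromosome 1 from 209614870 to 209652466, minus strand (GRCh38). It was at 879, 831 and 858 CPM in siControl replicates 1 to 3 and at 1757, 1889 and 1552 CPM in siDAB2IP replicates 1 to 3. Every siDAB2IP library exceeded every siControl library, and within replicate numbers the log2 difference was 1.00, 1.19 and 0.86. The log2 fold change was 1.02 (SE 0.12, 95% CI 0.75 to 1.29, adjusted p = 0.00128 from edgeR), and it passed the threshold in each of the 14 alternative fits that gave a value, with a log2 fold change of 0.95 to 1.09. A two-sided exact permutation test of the CPM values gave p = 0.1, the smallest that 3 libraries against 3 allow.

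LAMB1 encodes the β1 chain of the more widely expressed laminins and lies on chromosome 7 from 107923799 to 108003255, minus strand. It was at 1548, 1552 and 1656 CPM in siControl replicates 1 to 3 and at 1326, 1093 and 1043 CPM in siDAB2IP replicates 1 to 3. The groups did not overlap, and the smallest drop within a replicate number was in replicate 1, with log2 differences of −0.22, −0.51 and −0.67. The log2 fold change was −0.46 (SE 0.13, 95% CI −0.74 to −0.17, adjusted p = 0.0413 from edgeR). The call was past the threshold in 10 of 14 alternatives, among them those without siDAB2IP replicate 1 (adjusted p = 0.0361 from edgeR) or siDAB2IP replicate 3 (0.0348). In the other 4 the adjusted p of edgeR became 0.0784 on removal of siControl replicate 1, 0.114 on removal of siControl replicate 2, 0.102 on removal of siControl replicate 3 and 0.110 on removal of siDAB2IP replicate 2, at log2 fold changes of −0.50 to −0.42.

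LAMA3, the gene of the α3 chain that joins β3 in that laminin, was at 724, 788 and 856 CPM in siControl replicates 1 to 3 and at 849, 952 and 909 CPM in siDAB2IP replicates 1 to 3 (chromosome 18, 23689443 to 23956222, plus strand). The ranges overlapped, since siDAB2IP replicate 1 was below siControl replicate 3. Its log2 fold change was 0.19 (SE 0.12, 95% CI −0.06 to 0.45, adjusted p = 0.292 from edgeR), so a rise of up to 1.37-fold lies within the interval and a doubling like that of LAMB3 does not. LAMA5, the α5 chain gene on chromosome 20 from 62307955 to 62367312, minus strand, was at 1507, 1453 and 1929 CPM in siControl replicates 1 to 3 and at 1857, 2029 and 1962 CPM in siDAB2IP replicates 1 to 3. Here siControl replicate 3 stood in the siDAB2IP range, and the log2 fold change was 0.26 (SE 0.14, 95% CI −0.05 to 0.57, adjusted p = 0.249 from edgeR). LAMC1, the γ1 chain gene on chromosome 1 from 183023460 to 183145592, plus strand, was at 925, 954 and 1137 CPM in siControl replicates 1 to 3 and at 1042, 1094 and 1122 CPM in siDAB2IP replicates 1 to 3. The siDAB2IP values lay within the siControl range, and the log2 fold change was 0.11 (SE 0.12, 95% CI −0.16 to 0.38, adjusted p = 0.589 from edgeR).

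COL17A1 encodes collagen XVII, the transmembrane collagen of the hemidesmosome, on chromosome 10 from 104031286 to 104085957, minus strand. It was at 1347, 1348 and 1430 CPM in siControl replicates 1 to 3 and at 1151, 1159 and 1198 CPM in siDAB2IP replicates 1 to 3. The groups did not overlap, with siDAB2IP at 85.0% of the siControl mean, and the log2 difference was −0.23, −0.22 and −0.26 within the 3 replicate numbers. The change did not pass the threshold over all genes (log2 fold change −0.23, SE 0.11, 95% CI −0.48 to 0.01, adjusted p = 0.181 from edgeR). CD151, the tetraspanin gene on chromosome 11 from 832843 to 839831, plus strand, was at 427.0, 426.7 and 460 CPM in siControl replicates 1 to 3 and at 505, 502 and 551 CPM in siDAB2IP replicates 1 to 3. Its groups did not overlap either, siDAB2IP being at 119% of the siControl mean, but the adjusted p from edgeR was 0.138 (log2 fold change 0.25, SE 0.10, unadjusted p = 0.0372). Groups did not overlap for 4 of the 9 members (LAMB3, LAMB1, COL17A1 and CD151), or 44.4%, beside 35.9% of all genes tested.

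PLEC and DST encode the plakins plectin and dystonin, which connect the hemidesmosome to keratin filaments. PLEC, on chromosome 8 from 143915147 to 143976734, minus strand, was at 3090, 2914 and 4117 CPM in siControl replicates 1 to 3 and at 3459, 3791 and 3022 CPM in siDAB2IP replicates 1 to 3. The highest and the lowest value were both control libraries. DST, on chromosome 6 from 56457987 to 56954628, minus strand, was at 712, 735 and 764 CPM in siControl replicates 1 to 3 and at 780, 802 and 682 CPM in siDAB2IP replicates 1 to 3. The siDAB2IP libraries thus held both the highest values and the lowest. The fold change of PLEC was 1.01 (95% CI 0.786 to 1.31, adjusted p = 0.951 from edgeR) and that of DST 1.02 (95% CI 0.862 to 1.22, adjusted p = 0.875 from edgeR), and the sign of each turned when single libraries were left out.

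The log2 fold changes of the 9 members ran from −0.46 to 1.02 with a median of 0.11, and 7 were positive (77.8%). Over all genes tested the median was 0.01, and 51.1% were positive. Among the replicate numbers, replicate 3 gave the lowest log2 difference for 8 of the 9 members, the exception being CD151, for which replicate 2 was lowest. Replicate 3 was lowest for 40.0% of the 15418 genes with counts in every library. In that pair the log2 difference was −0.45 for PLEC, −0.16 for DST and −0.02 for LAMC1, all 3 of which were positive in both other pairs.

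**Figure D2:**
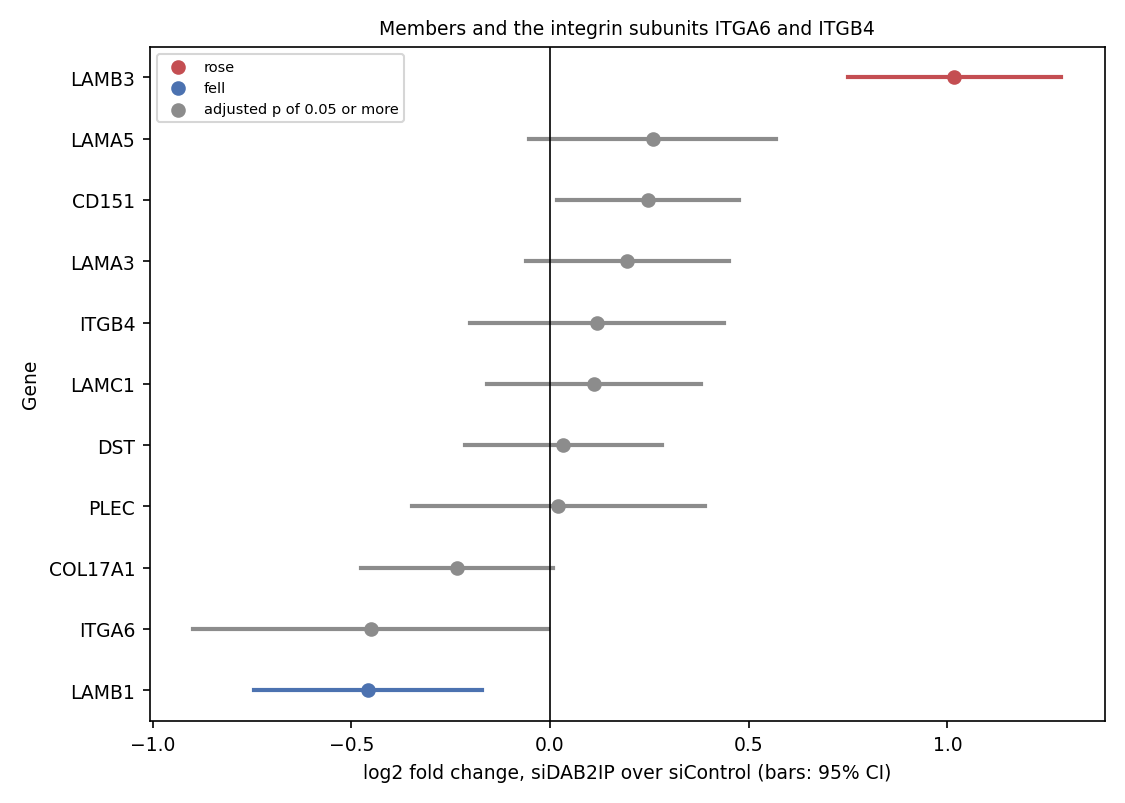
Log2 fold change of siDAB2IP over siControl with its 95% confidence interval for the 9 members and the integrin subunit genes ITGA6 and ITGB4, ordered by value, red where a gene rose, blue where it fell and grey where the adjusted p was not below 0.05. LAMB3 (1.02) lies to the right of 0 and LAMB1 (−0.46) to the left.

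A ratio within a library compares the chains without the library's scaling. The ratio of LAMB3 to LAMA3 in FPKM was 3.8, 3.30 and 3.14 in siControl replicates 1 to 3 and 6.48, 6.21 and 5.34 in siDAB2IP replicates 1 to 3. On the log2 scale it was 1.77 ± 0.14 in siControl and 2.58 ± 0.15 in siDAB2IP (SD, n = 3 in each), a difference of 0.82 with no overlap (two-sided exact permutation test, p = 0.1, the smallest possible). The size of this ratio within a library rests on the 14678 bases used for LAMA3. It would be lower if the short LAMA3 transcripts of 5007 and 5671 bases prevailed, so it does not give the relative amounts of the α3 and β3 transcripts. The LAMB3 to LAMB1 ratio was 0.985, 0.930 and 0.899 in siControl replicates 1 to 3 and 2.30, 3.0 and 2.58 in siDAB2IP replicates 1 to 3. By the lengths used, the transcripts of the β3 and β1 chains were therefore at nearly equal level in control cells. They differed by 2.30-fold or more in each siDAB2IP library, a log2 difference between the groups of 1.48 (two-sided exact permutation test, p = 0.1 again). The ratio in a library depends on these lengths, 4688 bases for LAMB3 and 8140 for LAMB1. Their longest basic coding transcripts measure 4305 and 5766 bases. The difference between the groups does not depend on the lengths. The ratio of LAMA3 to LAMA5 was 0.468, 0.528 and 0.432 in siControl replicates 1 to 3 and 0.445, 0.457 and 0.451 in siDAB2IP replicates 1 to 3. The siDAB2IP ratios lay inside the siControl range (log2 difference −0.07, two-sided exact permutation test, p = 0.6). These are 3 comparisons that share genes, and with 3 libraries a group none can pass a threshold of 0.05. That the LAMB3 to LAMB1 ratios do not overlap follows from the separate levels of these genes.

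**Figure D3:**
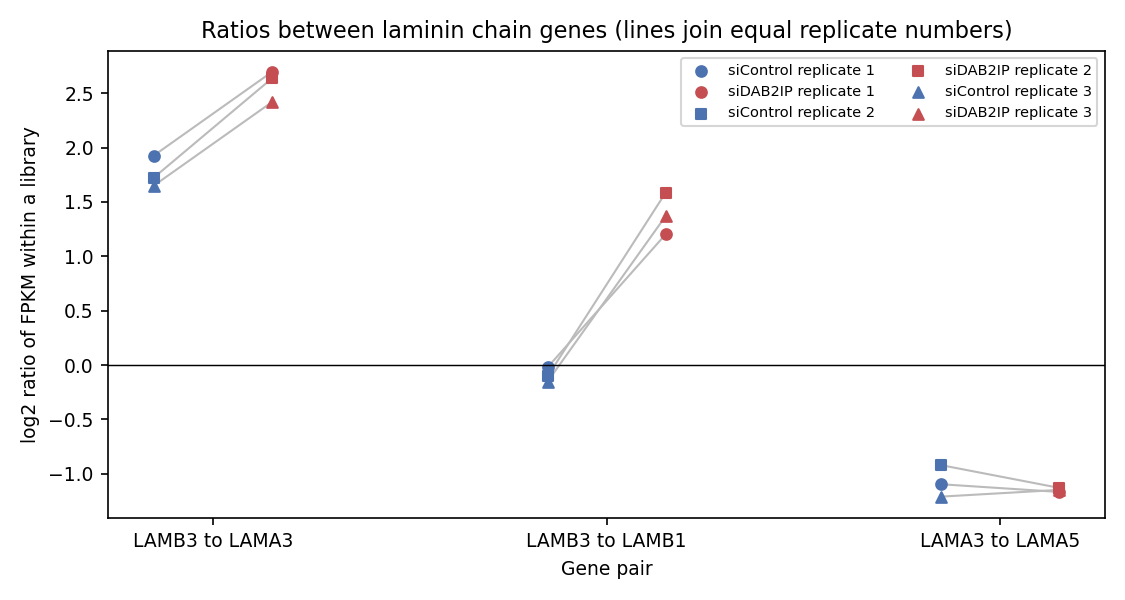
Log2 ratio of the FPKM values of 3 pairs of laminin chain genes within each library, siControl in blue and siDAB2IP in red, with grey lines between libraries of the same replicate number. LAMB3 to LAMB1 moves from between −0.15 and −0.02 to between 1.2 and 1.59, whereas LAMA3 to LAMA5 in siDAB2IP stays within the siControl range.

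Seen as a whole, the β-chain transcripts summed to 461 ± 7.67 FPKM in siControl and 601 ± 35.0 FPKM in siDAB2IP (SD, n = 3 in each). LAMB3 was 40.1%, 38.9% and 38.7% of that sum in siControl replicates 1 to 3 and 59.7%, 64.1% and 58.3% in siDAB2IP replicates 1 to 3. LAMB1 went from 41.9% ± 1.16 to 23.3% ± 2.37 (SD, n = 3 in each), and LAMB2, the β2 chain gene, was at 18.9% ± 0.547 and 16% ± 2.72 (SD, n = 3 in each). For LAMB3 and LAMB1 the shares did not overlap between the groups (two-sided exact permutation test, p = 0.1 for each). This follows from the levels of the genes given above and is no separate evidence. A share also drops when the sum rises: the mean share of LAMB2 was lower in siDAB2IP, while its mean level was 603 CPM in siControl and 664 CPM in siDAB2IP. Among the α chains LAMA3 held 32.1% ± 2.21 in siControl and 31.0% ± 0.290 in siDAB2IP (SD, n = 3 in each), with overlap (two-sided exact permutation test, p = 0.6). The shares depend on the gene lengths used, which would raise the LAMA3 share if its short transcripts prevailed, but the same lengths enter both groups.

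**Figure D4:**
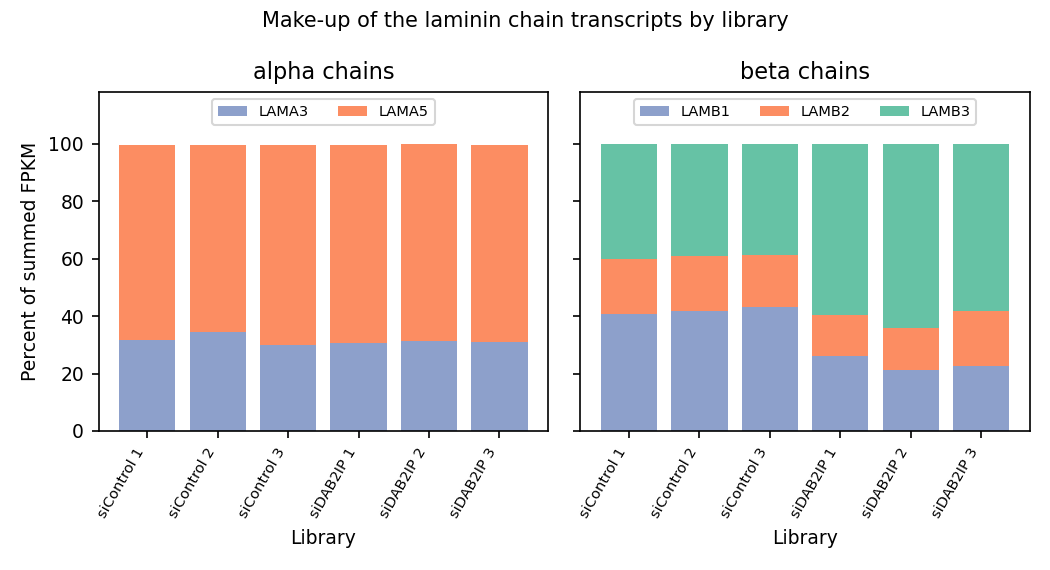
Stacked bars of each laminin chain gene's percent of the summed FPKM of its kind (α or β) in each of the 6 libraries, with chains under 1% left out. The LAMB3 part of the β chains grows from 38.7% to 40.1% in siControl to 58.3% to 64.1% in siDAB2IP, and the α chains keep LAMA3 between 30.1% and 34.5%.

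Around the members, 56 related genes in 5 lists were counted by the same fit, and 48 of them passed the filter. 5 rose and 5 fell (10.4% each), beside 6.55% and 7.65% of all genes tested, and their median log2 fold change was 0.02. When the replicate numbers were blocked, 7 rose and 10 fell, while over all 15430 genes 1479 rose and 1754 fell. Of 6 other laminin chains in these lists 4 were tested, and none of these passed the threshold (3 had a positive log2 fold change). LAMA1, LAMA2 and LAMA4 were under 1 FPKM on average in both groups, LAMB4 and LAMC3 did not pass the filter, and LAMB2 stood at 603 ± 11.2 and 664 ± 71.6 CPM (SD, n = 3 in each), with an edgeR adjusted p of 0.453.

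None of the 8 laminin receptors passed the threshold in either direction, and their log2 fold changes ran from −0.45 to 0.30 with a median of 0.13. ITGA6, the α6 subunit of the hemidesmosomal integrin, was at 1015, 1065 and 1173 CPM in siControl replicates 1 to 3 and at 952, 904 and 524 CPM in siDAB2IP replicates 1 to 3. The groups did not overlap, with siDAB2IP replicate 3 far below the others, and the log2 fold change was −0.45 (SE 0.20, adjusted p = 0.163 from edgeR). It was −0.22 without siDAB2IP replicate 3. ITGB4, the β4 subunit and its partner, was at 1860.1, 1695 and 1958 CPM in siControl replicates 1 to 3 and at 2223, 2111 and 1652 CPM in siDAB2IP replicates 1 to 3, with overlap and a log2 fold change of 0.12 (SE 0.14, adjusted p = 0.632 from edgeR).

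Of 20 other basement membrane components, 15 were tested, 4 rose and 2 fell, beside 6.55% and 7.65% of all genes tested. Among those that rose, HSPG2 and AGRN encode heparan sulfate proteoglycans. HSPG2, the perlecan gene, went from 521 ± 63.6 to 813 ± 68.2 CPM (SD, n = 3 in each; log2 fold change 0.64, SE 0.13, adjusted p = 0.0112 from edgeR). AGRN, the agrin gene, went from 1181 ± 31.8 to 1840.3 ± 135 CPM (SD, n = 3 in each; log2 fold change 0.64, SE 0.12, adjusted p = 0.00768 from edgeR). TINAGL1, which encodes a matrix glycoprotein, rose to 184 ± 21.8 CPM from 129 ± 12 CPM (SD, n = 3 in each; log2 fold change 0.52, adjusted p = 0.0194 from edgeR), and SPARC, the gene of a collagen-binding matricellular protein, from 53.2 ± 7.71 to 98.8 ± 35.6 CPM (SD, n = 3 in each; log2 fold change 0.89, adjusted p = 0.0235 from edgeR). In SPARC, siDAB2IP replicate 3 at 140.0 CPM was far above siDAB2IP replicates 1 and 2 at 77.7 and 78.8 CPM, and without it the log2 fold change was 0.56. The genes that fell encode chains of collagen IV, the network-forming collagen of basement membranes. COL4A5 was at 519 ± 31.3 and 373 ± 22.4 CPM (SD, n = 3 in each; log2 fold change −0.47, adjusted p = 0.0173 from edgeR), and COL4A1 at 151 ± 44.5 and 88.3 ± 22.8 CPM (SD, n = 3 in each; log2 fold change −0.78, adjusted p = 0.0428 from edgeR). The call of COL4A1 was past the threshold in 7 of its 14 alternatives, and its highest siDAB2IP library (112 CPM) was close to its lowest siControl library (116 CPM). Without siControl replicate 2 or 3 or siDAB2IP replicate 1 or 2, its adjusted p from edgeR was 0.0899, 0.142, 0.111 and 0.0980 in that order. With library size only the adjusted p from edgeR was 0.0549. From limma it was 0.0864 on log2(FPKM + 1) and 0.0887 on log2(FPKM + 0.1). The other 3 tested collagen IV chain genes, COL4A2, COL4A4 and COL4A6, had log2 fold changes of −0.37, −0.64 and −0.32 and did not pass (adjusted p = 0.180, 0.392 and 0.105 from edgeR). TINAGL1 was past the threshold in 9 of 14 alternatives and kept its call only on removal of siDAB2IP replicate 3 among the 6 libraries (adjusted p from edgeR of 0.0517 to 0.0791 otherwise). SPARC was past it in 10 of 14 and lost the call without siControl replicate 1 (0.0999) or siControl replicate 2 (0.108). It also lost the call with limma on log2(FPKM + 1) (adjusted p = 0.0612) and on log2(FPKM + 0.1) (adjusted p = 0.0623). HSPG2 and AGRN lost the call without siControl replicate 2 (adjusted p = 0.0730 and 0.0571 from edgeR). COL4A5 lost it in 3 of the 6 fits with a library removed, namely with siControl replicate 2 (adjusted p = 0.0801), siControl replicate 3 (0.0559) or siDAB2IP replicate 2 (0.0556) left out of edgeR.

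Among 10 other plakins and tetraspanins, all tested, TSPAN4 fell from 157 ± 15 to 106 ± 5.99 CPM (SD, n = 3 in each; log2 fold change −0.57, SE 0.10, adjusted p = 0.00796 from edgeR) and none rose. Over all genes tested 7.65% fell and 6.55% rose. TSPAN4 starts 2976 bases beyond the end of CD151 on chromosome 11, and its call was past the threshold in 14 of 14 alternatives. The other plakin genes in the list gave log2 fold changes of −0.51 (PPL, periplakin), 0.01 (EVPL, envoplakin), 0.26 (EPPK1, epiplakin) and 0.43 (MACF1), with adjusted p values from edgeR of 0.174, 0.949, 0.240 and 0.0641.

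Of 12 genes for proteases and activators that process laminin chains or collagen XVII or act upstream of such processing, 11 were tested, 1 rose and 2 fell. The shares over all genes tested were 6.55% and 7.65%. PLAU, the urokinase gene, was at 85.2 ± 4.08 CPM in siControl and rose to 143 ± 14.3 CPM in siDAB2IP (SD, n = 3 in each; log2 fold change 0.74, SE 0.10, adjusted p = 0.00269 from edgeR), past the threshold in 14 of 14 alternatives. MMP14, a membrane-bound metalloproteinase gene, fell from 418 ± 40.3 to 295 ± 21.3 CPM (SD, n = 3 in each; log2 fold change −0.50, adjusted p = 0.0179 from edgeR), and the call was lost without siControl replicate 1 (0.0566), siControl replicate 2 (0.0718) or siDAB2IP replicate 2 (0.0589). MMP9, a secreted metalloproteinase gene, was near the detection limit, at 1.43, 1.44 and 1.06 CPM in siControl replicates 1 to 3 and at 0.338, 0.388 and 0.0580 CPM in siDAB2IP replicates 1 to 3 (log2 fold change −2.29, SE 0.51, adjusted p = 0.0168 from edgeR). Its call was lost without siControl replicate 1 (0.0575) or siControl replicate 2 (0.0754). BMP1, ADAM9, ADAM10 and ADAM17, among the proteases known to cut laminin chains or collagen XVII, had log2 fold changes of 0.28, 0.22, 0.02 and −0.41 and did not pass (adjusted p = 0.204, 0.248, 0.931 and 0.146 from edgeR).

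**Figure D5:**
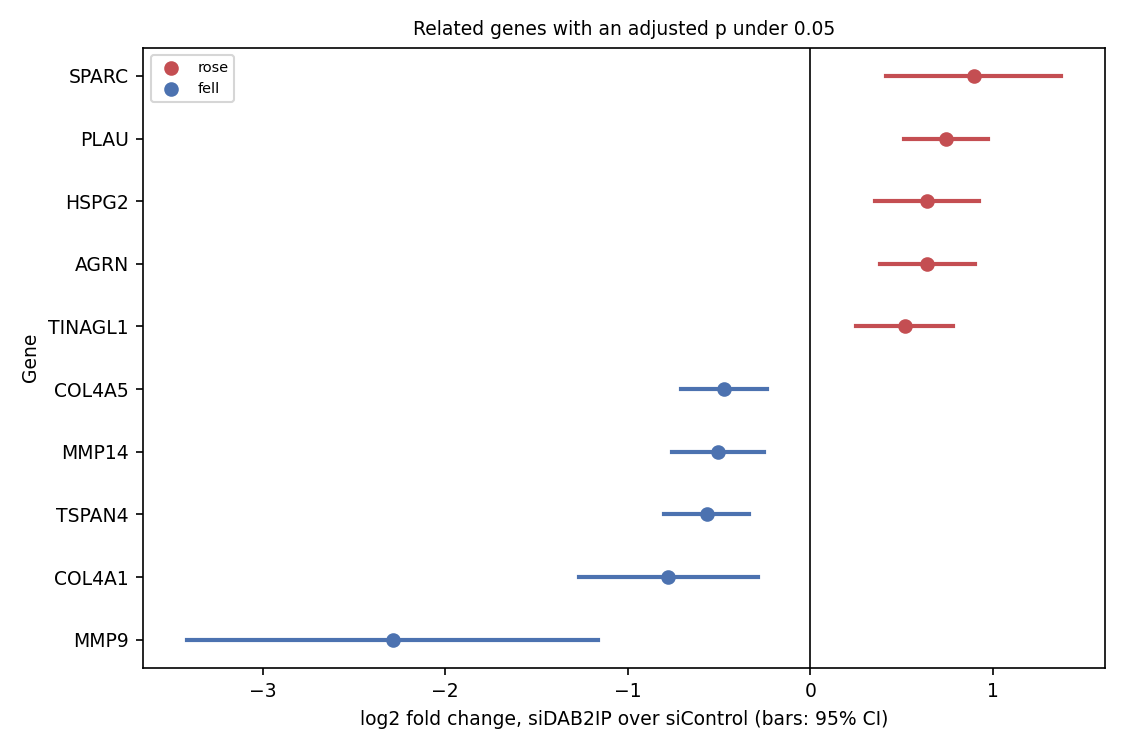
Log2 fold change of siDAB2IP over siControl with its 95% confidence interval for the 10 related genes that passed an adjusted p of 0.05, red for the 5 that rose and blue for the 5 that fell. SPARC (0.89) is at the top, and MMP9 (−2.29), which has few counts, shows the widest interval at the bottom.

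The strand setting used in counting is not given in the sources used here, so reads from exons shared with another gene cannot be assigned with certainty. Among the members the largest such share was in CD151, where 6.53% of the exon bases lie in POLR2L on the opposite strand (49.1 CPM on average, beside 479 CPM for CD151). LAMB1 shares 0.860% of its exon bases with DLD and 2.71% with AC005046.1, and LAMA5 shares 1.71% with ADRM1, all on the opposite strand. LAMA3, LAMC1, DST and PLEC share none with another gene. PLAU shares 31.1% of its exon bases with C10orf55, which was at 0.676 CPM on average.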

How the data were processed

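RNA-Seq data of 3 siControl and 3 siDAB2IP MCF10A libraries were used. Novogene made and sequenced the libraries, and the submitters' processing notes name STAR 2.6.1d, featureCounts 1.5.0-p3, DESeq2 1.20.0, edgeR 3.24.3 and hg38, without roles. The authors deposited whole-number read counts per gene, without normalization, and FPKM values, in which they divided counts by gene length and library total. All 58735 genes match GENCODE 29 in start, end and strand.

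Tests on the counts used edgeR 4.0.16 under R 4.3.3 (filterByExpr, TMM, glmQLFit, glmQLFTest, group as the only term, Benjamini-Hochberg over 15430 genes, threshold 0.05). CPM are TMM-normalized. The SE comes from the F statistic. Ratios and shares use the deposited FPKM within a library, with two-sided exact permutation tests (scipy). The labels do not say whether replicates are separate cultures, so p-values may measure technical spread. Same-numbered libraries deviated together (r = 0.26, 0.15 and 0.25 across genes). The main fit and the permutation tests did not use this pairing, which enters only through the alternative with a replicate block. With that block edgeR called 3233 genes, against 2192 in the main fit. Its adjusted p was 0.000803 for LAMB3 and 0.0241 for LAMB1.

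Named genes were the members, DAB2IP, ITGA6, ITGB4 and, per related list, up to 6 genes past the threshold with the smallest p. Others in the lists were named after their values were seen. 1 further related gene and 1 further marker gene are not reported here. Members and lists were chosen with earlier results of these data known. Alternatives were DESeq2 1.42.0, RLE factors, library size only, no filter, at least 10 counts in every library, a replicate block, limma 3.58.1 on log2(FPKM + 1) and log2(FPKM + 0.1), an adjusted p under 0.01 and leaving out each library. On simulated counts for this comparison over 15430 genes, edgeR recovered 15 of 67 genes changed by 0.5 (log2), 45 of 67 changed by 1 and 55 of 66 changed by 2, with 9 false calls.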

Additional observations from a re-analysis of the deposited data

How the results depend on the processing

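The count of members that rose was 1 in every alternative. The count of members that fell, 1 with all libraries, was 0 to 1 when a library was left out and 0 at an adjusted p under 0.01. The count of related genes that rose, 5, was 1 to 9 with a library left out (1 without siControl replicate 2, 3 without siControl replicate 1, 9 without siDAB2IP replicate 3) and 2 at an adjusted p under 0.01. The count that fell, 5, was 1 to 5 with a library left out (1 without siControl replicate 2, and 3 without siControl replicate 1, siControl replicate 3 or siDAB2IP replicate 2), 12 with no filter, 3 with limma on log2(FPKM + 1) and on log2(FPKM + 0.1), and 1 at an adjusted p under 0.01. With the replicate number as a block, which pairs the libraries, 7 related genes rose and 10 fell, and the member calls were 1 that rose and 1 that fell.

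The log2 ratio of LAMA3 to LAMA5 differed by −0.14 to 0.00463 with a library left out, the positive value being that without siControl replicate 2. The log2 fold change of DST was between −0.0128 and 0.10 with a library left out, negative without siControl replicate 1 or siDAB2IP replicate 2, and that of PLEC between −0.0906 and 0.17, negative without siControl replicate 1, siControl replicate 2 or siDAB2IP replicate 2. ITGA6 passed the threshold with no filter (adjusted p = 0.00641 from edgeR). In each case the cause was not tested. The lowest value of a member was 426.7 CPM (CD151, siControl replicate 2), far above the limit of 3 counts, and MMP9 was under that limit in 1 siDAB2IP library.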
